A study of Saccharomyces cerevisiae with 8 samples.

Results

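HPRT1R and HPRT1 were compared here as episomes in Saccharomyces cerevisiae, by the transcription start sites that yeast used within each human-derived sequence. HPRT1 is a human genomic locus of about 100 kb that holds the gene for hypoxanthine phosphoribosyltransferase, a purine salvage enzyme, and HPRT1R holds the same bases in reverse order without complementing them. Both loci were carried in the same vector, pLM1110, a yeast and bacterial shuttle vector with a yeast centromere, a replication origin and the LEU2 marker. Of the 8 libraries of the series, the 4 from episome strains were used, 2 for each locus, and all peaks on the synthetic sequence were taken. Peaks with the 5′ end before the end of the locus were called locus peaks, and the remaining ones vector peaks, the part that both episomes have in common. There were 382 locus peaks and 53 vector peaks among the 12586 peaks of the 4 libraries.

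The HPRT1 and HPRT1R groups shared every condition given in the labels. Each was a MATa haploid of the BY4741 background (his3Δ1 leu2Δ0 met15Δ0 ura3Δ0), grown at 30 °C in synthetic medium lacking leucine, which selects for the episome, and diluted and grown for 6 h to mid-log phase. Libraries came from 2 replicate colonies of 1 assembled strain per locus, so the comparison is between 2 strains as well as between 2 sequences. CAGE-seq, which captures the capped 5′ ends of RNA, was carried out from 5 μg of RNA with 20 cycles of PCR. A peak is a stretch where 5′ reads, each extended to 200 bp, pile up above the local background, and its 5′ boundary is taken as the start site. Peak height is given in RPM, reads relative to 1000000 aligned reads of the library.

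In yeast, RNA polymerase II usually starts within nucleosome-depleted stretches, often rich in A and T, and general regulatory factors help to keep such stretches open. Many open stretches are transcribed in both directions, and most of the RNAs made from outside genes are quickly degraded. Reversal without complementing keeps the base composition of every stretch but turns each dinucleotide around. Codons of the human sequence, and binding motifs that differ when read backwards, are thus lost at their places in HPRT1R. The study holds that minor features which reversal does not remove, such as short palindromes, probably remain. It also sets a simple geometry. Read on the same strand, a mirrored site has the same bases in opposite order, and read on the opposite strand it has the complementary bases in the same order.

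The sequences below show 7 of the 8 positions that the study chose, from its own CAGE-seq and RNA-seq signal, for inserting a selectable marker at start sites. They are shown because each lies at a start region described below. Each line gives 40 bases before the position in lower case and 40 bases after it in capitals, in the direction in which the marker was inserted, with the position counted from the left end of the deposited synthetic sequence. The bases were read from the homology arms of the study's insertion oligonucleotides.
HPRT1 13493: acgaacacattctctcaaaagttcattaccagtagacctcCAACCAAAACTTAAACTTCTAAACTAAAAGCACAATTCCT
HPRT1 56086: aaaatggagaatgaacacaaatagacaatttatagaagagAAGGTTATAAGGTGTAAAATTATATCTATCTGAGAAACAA
HPRT1 56401: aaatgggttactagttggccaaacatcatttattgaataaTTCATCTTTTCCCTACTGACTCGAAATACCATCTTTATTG
HPRT1R 21797: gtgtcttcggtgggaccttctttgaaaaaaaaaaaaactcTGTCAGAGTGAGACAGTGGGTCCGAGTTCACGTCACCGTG
HPRT1R 37903: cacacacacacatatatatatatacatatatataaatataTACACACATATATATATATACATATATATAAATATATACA
HPRT1R 78135: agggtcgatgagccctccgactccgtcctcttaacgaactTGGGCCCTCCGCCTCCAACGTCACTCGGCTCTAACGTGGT
HPRT1R 88545: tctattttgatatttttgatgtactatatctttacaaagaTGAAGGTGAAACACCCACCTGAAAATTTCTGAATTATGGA

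Besides 21797, HPRT1R had 5 start regions called in both libraries whose bases could be read from the published starts of its synthesis segments, the first 400 bases of each. The 3 tallest are shown, and 2 of them point away from each other. The other 2, at 95290 and 98942, had mean heights of 77.8 and 99.8 RPM, and both hold a run of 6 A. Each line gives 60 bases before the start in lower case and the first 20 bases from the start on in capitals, on the strand named.
HPRT1R reverse 11010: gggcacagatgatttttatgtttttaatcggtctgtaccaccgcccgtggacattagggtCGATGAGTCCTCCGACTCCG
HPRT1R reverse 17805: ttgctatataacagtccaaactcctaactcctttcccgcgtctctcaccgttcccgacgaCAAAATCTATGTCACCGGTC
HPRT1R forward 17906: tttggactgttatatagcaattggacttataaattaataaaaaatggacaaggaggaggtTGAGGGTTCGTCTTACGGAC

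The ranges of depth in the groups overlapped. As recovered from the peak statistics, the HPRT1 libraries held 8.05 and 7.27 M aligned reads (1 M is 1000000 reads) in replicates 1 and 2, and the HPRT1R libraries 8.85 and 6.48 M. HPRT1R replicate 2 was the shallowest library and had 37.9% of its reads on the forward strand, against 35.6% to 35.7% in the other 3. Over the whole genome, the lowest forward peak called had 61 to 75 piled-up reads, depending on the library, and the lowest reverse peak 93 to 125. Weaker start sites are thus not represented, and where the local background is higher a peak needs more reads. At the locus, the lowest forward peaks had 10.3 and 9.35 RPM in HPRT1 and 13.8 and 17.9 RPM in HPRT1R. Of the strain markers, the 4 alpha-specific genes MF(ALPHA)1, MF(ALPHA)2, STE3 and SAG1 had no start region in any library. Of 6 a-specific genes, 4 had a start region, and 3 of these, MFA1, MFA2 and STE6, had it in all 4 libraries. Their log2 differences were positive (median 1.45), and none passed an adjusted p of 0.05 (limma, adjusted p 0.778 to 0.779). MFA2, an a-factor pheromone gene, had 181 and 47.7 RPM in HPRT1 and 168 and 691 RPM in HPRT1R.

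The first question was whether reversing the locus changed how many start sites it holds. HPRT1 had 94 and 93 locus peaks and HPRT1R had 103 and 92. The groups overlapped, and HPRT1R held 1.04 times as many peaks as HPRT1 (log2 difference 0.06, SE 0.08; exact two-sided permutation test over libraries, n = 2 and 2, p = 1). With 2 libraries a group, this test has 6 assignments and cannot give a p below 0.333, so none of the 8 library-level comparisons of this kind could pass 0.05, and their p-values say nothing about stability. P-values were adjusted over these 8 by the Benjamini-Hochberg method. Peaks of a library were not used as replicates.

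HPRT1R peaks were on the whole taller in RPM than HPRT1 peaks, and the height of the locus was spread over more of them. The median locus peak height was 126 and 141 RPM in HPRT1 and 197 and 199 RPM in HPRT1R. The groups did not overlap, and the ratio of HPRT1R to HPRT1 was 1.49 (log2 difference 0.57, SE 0.09; exact permutation p = 0.333, adjusted 0.533). Measured instead by the authors' fold over the local background, the medians were 5.16 and 5.29 in HPRT1 and 5.32 and 5.65 in HPRT1R, and the ratio was 1.05. More copies of an episome and more RNA from each copy cannot be told apart in bulk RNA. The study estimated copy numbers of both episomes from whole-genome sequencing depth, and these estimates were not used here.

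**Figure D1:**
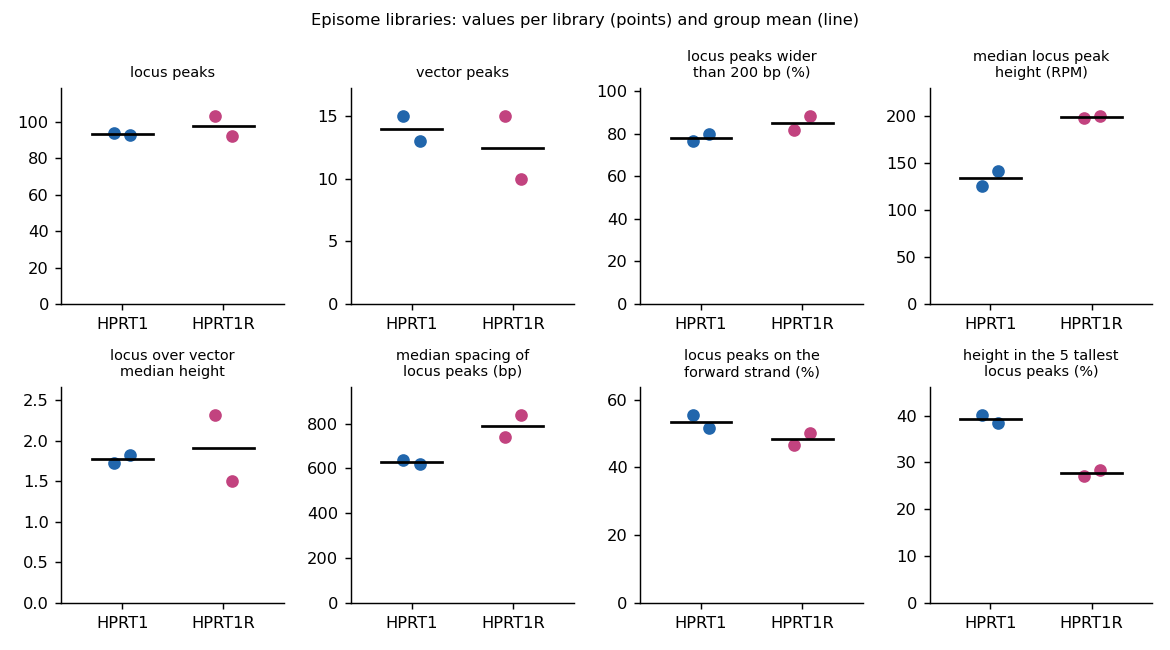
The 8 library-level measures are plotted on axes from 0, with 1 point per library and a line at the mean of the 2 libraries of a group. The groups do not overlap in 5 of the panels, the wide share, the median height (126 and 141 against 197 and 199 RPM), the spacing, the forward share and the share of the 5 tallest peaks.

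The taller median was found on the forward strand. Forward peaks of HPRT1 had median heights of 60.1 and 102 RPM, and those of HPRT1R 199 and 198 RPM, a ratio of 2.54. Reverse peaks had medians of 216 and 164 RPM in HPRT1 and 192 and 201 RPM in HPRT1R, a ratio of 1.05 with overlapping groups. This split by strand was chosen after the values had been seen. In other words, the forward strand of HPRT1 stood apart from the other 3 combinations of locus and strand.

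The low forward median of HPRT1 came with many weak peaks. Under 30 RPM there were 15 of 52 and 7 of 48 forward peaks in HPRT1, and 3 of 48 and 2 of 46 in HPRT1R. At 100 RPM or more, HPRT1 had 23 and 24 forward peaks and HPRT1R had 35 and 35. The local background moved with this result: at forward locus peaks its median was 10.5 and 15.9 RPM in HPRT1 and 31.1 and 28.1 RPM in HPRT1R, and a lower background lets a weaker peak be called. Its part in the difference was not tested. Counting only peaks of at least 100 RPM over both strands, the medians were 259 and 207 RPM in HPRT1 and 280 and 235 RPM in HPRT1R, and the ratio fell to 1.11. The number of such peaks was then 54 and 59 in HPRT1 and 77 and 71 in HPRT1R, 1.31 times as many.

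**Figure D2:**
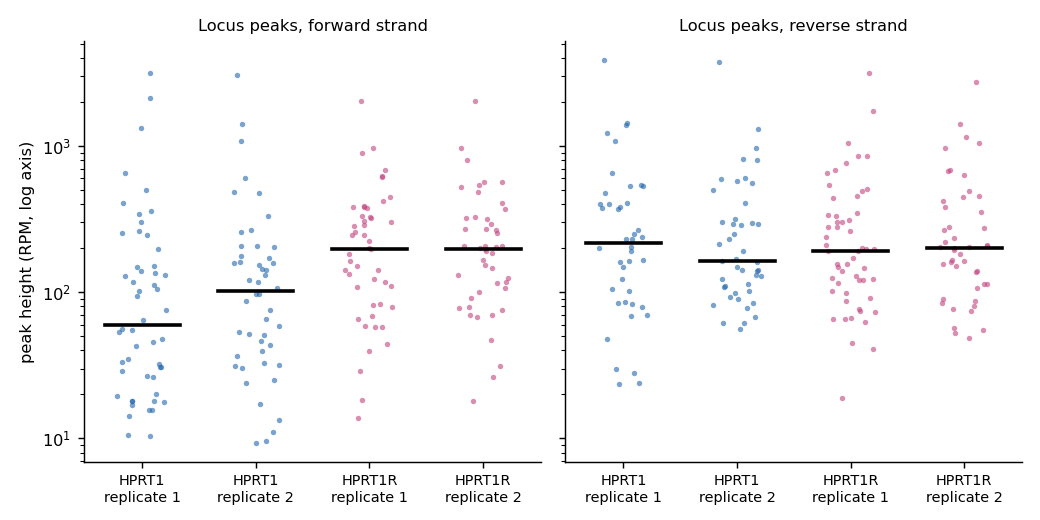
Heights of all locus peaks are plotted on a logarithmic RPM axis, by strand and library, with a bar at the median. The forward medians of HPRT1, 60.1 and 102 RPM, lie below those of HPRT1R, 199 and 198 RPM, while the reverse medians lie between 164 and 216 RPM in all 4 libraries.

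Summed over the locus, heights of the groups overlapped. The sum of peak heights was 29824 and 27586 RPM in HPRT1 and 32823 and 29664 RPM in HPRT1R. HPRT1 held more of its sum in a few start sites: the 5 tallest peaks made up 40.03% and 38.5% of it in HPRT1 and 27.2% and 28.3% in HPRT1R. This is a difference of −11.5 percentage points (SE 0.948; exact permutation p = 0.333, adjusted 0.533), with no overlap between the groups. With the authors' fold in place of RPM the shares were 23.4% and 23.8% in HPRT1 and 18.6% and 19.8% in HPRT1R, a difference of −4.37 points. In HPRT1, 8 and 9 peaks held 50% of the summed height, and in HPRT1R 16 and 15 peaks did.

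Widths and spacing differed less. Peaks wider than 200 bp, which need start positions spread over more than a single base, made up 76.6% and 79.6% of locus peaks in HPRT1 and 81.6% and 88.0% in HPRT1R (difference 6.72 percentage points, SE 3.57; exact permutation p = 0.333, adjusted 0.533). With a −log10 q of at least 20 the difference was 1.02 points with overlapping groups, and with a fold of at least 4 it was 0.877 points. The median width was 259 and 256 bp in HPRT1 and 257 and 266 bp in HPRT1R, against 206 to 208 bp for native peaks. As for height, the wide share differed on the forward strand, 67.3% and 70.8% against 81.3% and 84.8%, and overlapped on the reverse strand, 88.1% and 88.9% against 81.8% and 91.3%.

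Neighbouring start sites, taken over both strands, lay a median of 638 and 620 bp apart in HPRT1 and 741 and 836 bp apart in HPRT1R. The groups did not overlap, and the ratio was 1.25 (log2 difference 0.32, SE 0.09; exact permutation p = 0.333, adjusted 0.533). On the forward strand alone the spacing was 1247 and 1566 bp in HPRT1 and 1919 and 1897 bp in HPRT1R, and on the reverse strand alone the order was turned, with 1977 and 2267 bp in HPRT1 and 1416 and 1728 bp in HPRT1R. The forward share of locus peaks was 55.3% and 51.6% in HPRT1 and 46.6% and 50.0% in HPRT1R (difference −5.17 percentage points, SE 2.51; exact permutation p = 0.333, adjusted 0.533). Among peaks of at least 100 RPM this share had the opposite order, with 42.6% and 40.7% in HPRT1 and 45.5% and 49.3% in HPRT1R.

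Peaks of both replicates that overlapped on the same strand were joined into regions. The 5′ end of a region is the most upstream 5′ end of its peaks in either library, so a single library can set it. Its height in a library is that of its tallest peak there. Each locus gave 113 regions, of which 71 in HPRT1 and 77 in HPRT1R were called in both libraries. These 71 regions comprised 35 on the forward and 36 on the reverse strand, and the 77 comprised 36 and 41. Regions of a single library were low, with median heights of 49.8 RPM in HPRT1 and 75.4 RPM in HPRT1R, against 179 and 246 RPM for those in both. Across regions called in both, log2 heights of the replicates had a Pearson correlation of 0.91 in HPRT1 and 0.90 in HPRT1R, as a description across regions that share a library. Heights were within 2-fold between replicates for 60 of the 71 and 70 of the 77. In HPRT1 11 of these regions were below 50 RPM, and in HPRT1R 1 was.

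The tallest regions are named here by rule, as the 8 with the highest mean height at each locus. In HPRT1 the first was on the reverse strand at 50737, with 3846 and 3740 RPM in replicates 1 and 2. The second was on the forward strand at 56404, with 3150 and 3063 RPM, at the insertion position 56401 whose sequence is shown above. The third was on the forward strand at 76830, with 2119 and 1423 RPM. These 3 were each taller in both libraries than any other HPRT1 region was in the same library. The other 5 lay on the reverse strand at 96639 (1231 and 1310 RPM), 7236 (1431 and 962 RPM), 4559 (1393 and 801 RPM) and 13507 (1075 and 816 RPM), and on the forward strand at 93062 (1327 and 1087 RPM).

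In HPRT1R the tallest region was on the reverse strand at 20959, with 3157 and 2750 RPM. The second was on the forward strand at 88544, with 2027 and 2039 RPM, next to the insertion position 88545. The third was on the reverse strand at 52452, with 1725 and 1418 RPM. The next 5 were lower, between 651 and 1149 RPM in every library: they lay on the reverse strand at 68914, 96617 and 83032 and on the forward strand at 36918 and 21797. Above a mean of 1000 RPM there were 7 regions in HPRT1 and 4 in HPRT1R, whereas above 200 RPM there were 33 and 47.

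**Figure D3:**
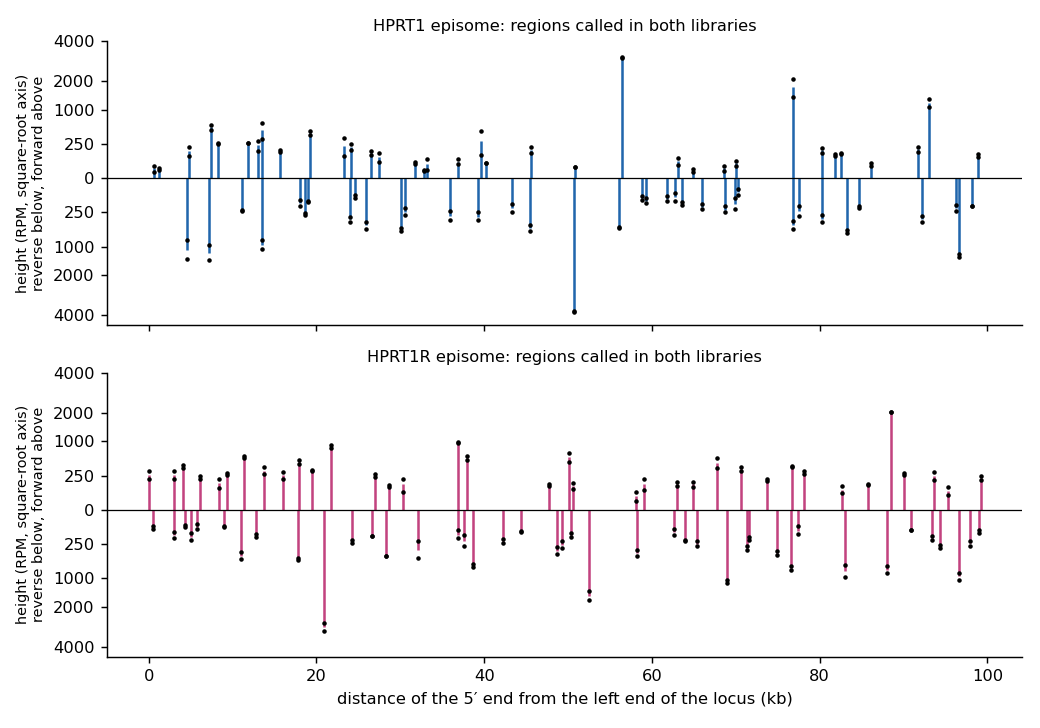
Mean heights of regions called in both libraries are drawn along each locus, forward above and reverse below the axis, on a square-root RPM scale, with dots for both replicates. In HPRT1 the reverse region at 50737 and the forward region at 56404 stand above 3000 RPM and 11 regions lie below 50 RPM, and in HPRT1R none has a mean above 3000 RPM and 1 lies below 50 RPM.

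In bins of 10 kb the forward strand of HPRT1 was uneven. The bin from 60 to 70 kb held 7 and 4 forward peaks that summed to only 161 and 140 RPM, and that from 50 to 60 kb held 3 and 2 peaks that summed to 3221 and 3088 RPM. In HPRT1R the lowest forward bin, from 40 to 50 kb, held 4 and 3 peaks with 299 and 248 RPM. The highest bin of HPRT1R was on the reverse strand from 20 to 30 kb, with 4214 and 3595 RPM, most of it in the region at 20959.

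All 8 insertion positions had a start region within 33 bp that was called in both libraries. As the study chose them from these signals, this describes the sites and is no finding. In HPRT1, position 13493 lay in a forward region of 653 and 331 RPM that began 33 bp before it, and a taller reverse region of 1075 and 816 RPM began 14 bp after it, so that both strands start there. Position 56086 had a reverse region of 535 and 502 RPM, and position 93086 a forward region of 1327 and 1087 RPM. In HPRT1R, position 37903 had 626 and 538 RPM and position 78135 had 327 and 270 RPM. The 8 sites thus covered ranks 2 to 14 of the regions by height in HPRT1 and ranks 2 to 30 in HPRT1R.

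The sequences at these sites differed widely. In HPRT1R the share of A and T in the 40 bases before the position ran from 42.5% at 78135 to 82.5% at 37903, a stretch mostly of alternating T and A. Over the 10773 published bases of the locus, 10.7% of it, the share was 58.5%. Upstream of 21797 there is a run of 13 A. The motif TATAAA, searched on both strands, was present within 40 bases of 56086 and 37903, 2 of the 7 sites shown, and in 14.1% and 13.5% of all windows of the same length in the published stretches of HPRT1 and HPRT1R. No match says only that these letters are not in the window.

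Among all regions, 11 of HPRT1R and 6 of HPRT1 had a start whose flanks could be read from the published stretches, with HPRT1 placed by the equal length of both loci. Of these, 6 and 2 were called in both libraries. In HPRT1R, 2 of these 11 windows held TATAAA and 5 held a run of 6 A on either strand (AAAAAA), and in HPRT1 1 of 6 held each. All windows of either locus held AAAAAA in 23.8%. The median share of A and T in the 60 bases before the start was 55.0% in HPRT1R and 65.8% in HPRT1, against 61.7% for all windows of either locus. These counts are small and carry no test. The reverse start at 17805 (region height 539 and 492 RPM) and the forward start at 17906 (450 and 523 RPM), both printed above, diverge from the same stretch. Their windows overlap as reverse complements. In replicate 1 the reverse peak that begins at 17805 had 331 RPM, and the 539 RPM is that of a peak beginning at 17514 in the same region. Divergent starts of this kind, at most 300 bp apart, were found for 9 of 36 forward regions in HPRT1R and 8 of 35 in HPRT1. The start at 11010 (509 and 384 RPM) shares the 12-base run AGGGTCGATGAG with the bases before 78135, and this run on either strand is in 2.93% of all HPRT1R windows. The human HPRT1 gene is known for its many Alu repeats, and no repeat annotation was used here.

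The main question that the reversal allows is whether start sites fell at mirrored places. An HPRT1R region was counted as mirrored when its 5′ end lay within 100 bp of the mirrored 5′ end of an HPRT1 region, both called in 2 libraries. On the opposite strand 14 of 77 HPRT1R regions were mirrored, or 18.2% (95% Clopper-Pearson interval 10.3% to 28.6%, for counting error only), and 14 of 71 HPRT1 regions, or 19.7%. The mirrored 5′ ends with their 100 bp covered 7.08% of locus positions on that strand. On the same strand 2 of 77 were mirrored, or 2.60% (0.316% to 9.07%), where 7.09% of positions were covered. Without mirroring, 6 of 77 coincided on the same strand and 3 on the opposite strand. Of the mirrored counts, that on the opposite strand was above the share of covered positions and that on the same strand was below it, and no chance test was made.

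Further values bear on this count. Within 50 bp, 9 of 77 were mirrored on the opposite strand and 1 on the same strand, with 3.56% of positions covered on each, and within 500 bp the strands were alike, with 28 and 29 of 77 and 31.8% of positions covered. Leaving out 1 library kept every region of the remaining library of that locus, so regions called once were then included. Without HPRT1 replicate 1 or 2, 14 and 16 of 77 were mirrored on the opposite strand, with 9.30% and 9.44% of positions covered. Without HPRT1R replicate 1 or 2, 13 of 92 and 16 of 103 were, with 7.08% covered in each. Same-strand matches numbered 3 to 5 in these settings. With a fold of at least 4, 6 of 55 regions, 10.9% (4.11% to 22.2%), were mirrored on the opposite strand, with 4.60% of positions covered, and 1 on the same strand. The integrated libraries come from other cultures, grown in rich medium, with the loci in chromosome XI. There, 9 of 65 HPRT1R regions, 13.8%, were mirrored on the opposite strand within 100 bp and 4, 6.15%, on the same strand, with 5.89% of positions covered on each. Within 50 bp these counts were 7 and 0, with 2.96% of positions covered. The intervals of 6.53% to 24.7% and 1.70% to 15.0% within 100 bp overlap.

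**Figure D4:**
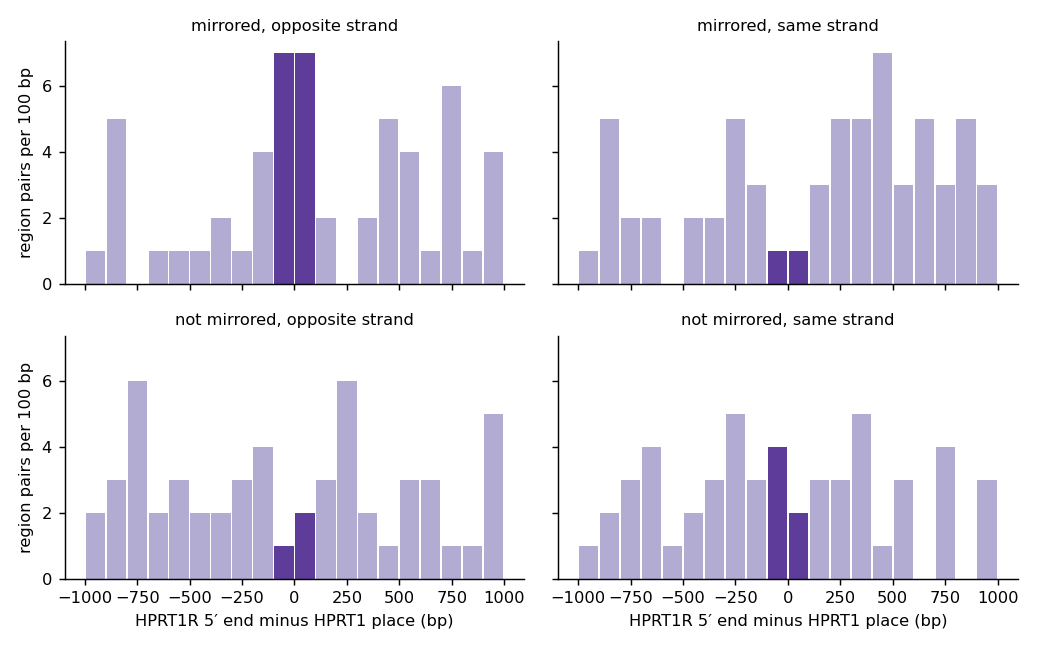
Each panel counts pairs of an HPRT1 and an HPRT1R region of the episomes, per 100 bp of the distance between the HPRT1R 5′ end and the HPRT1 place, with the bins next to 0 in dark. With positions mirrored and strands opposite these bins hold 7 and 7 pairs and the other 18 bins 0 to 6 (mean 2.28), whereas with positions mirrored on the same strand they hold 1 and 1 and the others 0 to 7 (mean 3.39).

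The 14 opposite-strand pairs were split over both strands, with 6 on the forward and 8 on the reverse strand of HPRT1. By region 5′ ends, 7 of the 14 agreed within 25 bp. Such ends can rest on a single library, and replicates of a locus can differ by more than this. For example, HPRT1 forward 68646 began at 68953 in replicate 1 and at 68646 in replicate 2. The pair with the exact mirrored position was the reverse start of HPRT1 at 84685, with 166 and 191 RPM, and the forward start of HPRT1R at 16050, with 309 and 208 RPM. By region ends, the next closest was 2 bp off, at HPRT1 reverse 35873 (372 and 233 RPM) and HPRT1R forward 64860 (164 and 115 RPM). Single libraries were further apart here. The HPRT1 peak began at 35873 in replicate 1 and at 35722 in replicate 2, and that of HPRT1R replicate 1 began at 64942. The pair with the highest smaller member was HPRT1 reverse 96639, with 1231 and 1310 RPM, and HPRT1R forward 4120, with 423 and 368 RPM, 24 bp off.

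Neighbouring starts were mirrored together in 2 places. At the first, the divergent HPRT1 starts at 23983 (reverse, 401 and 315 RPM) and 24090 (forward, 246 and 175 RPM) faced HPRT1R forward 76662 (386 and 409 RPM) and HPRT1R reverse 76628 (768 and 679 RPM), 90 and 17 bp off. The forward starts of this place, at 24090 and 76662, are also 1 of the 2 same-strand matches. Both this match and the 17 bp rest on HPRT1 replicate 1, since the forward peak began at 24292 in replicate 2. At the second, the divergent HPRT1 starts at 7236 (reverse, 1431 and 962 RPM) and 7405 (forward, 504 and 603 RPM) faced HPRT1R forward 93579 (304 and 190 RPM) and HPRT1R reverse 93355 (149 and 199 RPM), 80 and 25 bp off. One further pair of the 8 with the highest smaller member was HPRT1 reverse 30102 (533 and 605 RPM) and HPRT1R forward 70651 (386 and 322 RPM), 18 bp off. Over all opposite-strand pairs, mean heights ran from 21.2 to 3106 RPM in HPRT1 and from 59.6 to 723 RPM in HPRT1R. None of the 8 tallest HPRT1R regions was among them.

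Heights of mirrored pairs did not match closely. The ratio of HPRT1R to HPRT1 mean height ran from 0.0320 to 16.6 over the 14 pairs, with 4 pairs within 2-fold and 5 taller in HPRT1R. The lowest ratio was that of HPRT1 forward 56404, with 3150 and 3063 RPM, and HPRT1R reverse 44411, with 91.6 and 107 RPM. The highest was that of HPRT1 forward 68646, with 10.6 and 31.8 RPM, and HPRT1R reverse 32082, with 493 and 208 RPM. These pairs were named after their values had been seen. None of the 3 tallest HPRT1R regions had a partner called in both libraries at its mirrored place on either strand, and of the 3 tallest HPRT1 regions only that at 56404 had one. Regions with an opposite-strand partner had a median height of 252 RPM in HPRT1R, against 244 RPM for the others, and of 263 against 169 RPM in HPRT1.

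For 2 of these pairs an insertion position gives the bases. The lines show the opposite strand of the other locus at the mirrored place, which is the complement of the sequence printed above in the same order, with the same 40 bases in capitals.
HPRT1R opposite 56401: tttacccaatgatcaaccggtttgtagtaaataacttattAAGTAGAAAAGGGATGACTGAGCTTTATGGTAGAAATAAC
HPRT1 opposite 37903: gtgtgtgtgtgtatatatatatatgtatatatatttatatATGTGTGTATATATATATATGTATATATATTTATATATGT
The HPRT1R start at 44411 lies 80 bp upstream of the mirrored 5′ end of the HPRT1 region at 56404. The HPRT1 reverse start at 62770, with 47.6 and 110 RPM, lies 62 bp downstream of the mirrored 5′ end of the HPRT1R region at 37903. That HPRT1R region had 626 and 538 RPM. The starts at 44411 and 62770 thus lie outside the 40 bases shown on each side.

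The vector is the same in both episomes and served as the internal comparison. It had 15 and 13 peaks with HPRT1 and 15 and 10 with HPRT1R (log2 difference −0.19, SE 0.31; exact permutation p = 1, adjusted 1). Among 24 vector regions, each of the 4 libraries held the same 7, and 13 were found in 1 library. No region was called in both libraries of a locus and in neither of the other, and no region missing from some library exceeded 143 RPM.

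**Figure D5:**
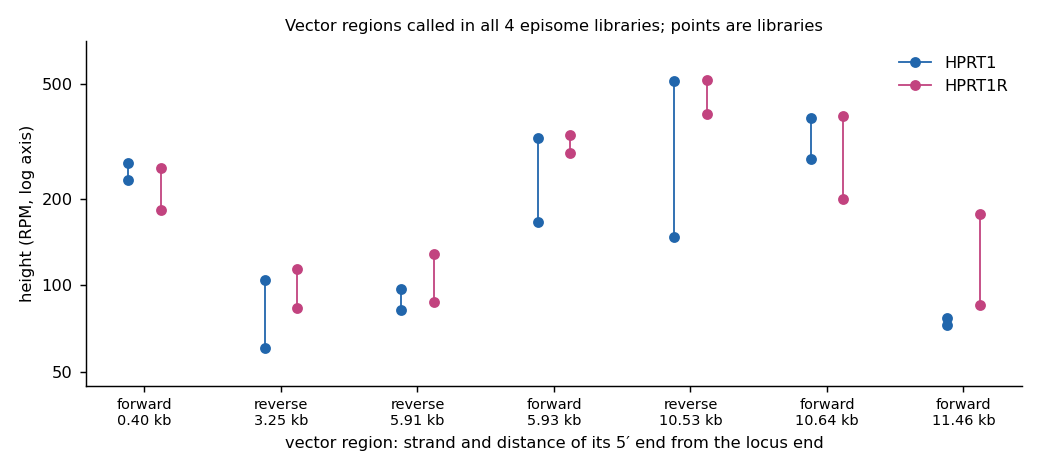
Heights of the 7 vector regions called in all 4 libraries are plotted on a logarithmic RPM axis, with 1 point per library and a line joining both replicates of a group. The replicates overlap between HPRT1 and HPRT1R at 6 of the 7 regions.

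The heights of the 7 shared vector regions mostly overlapped between the loci. The reverse region at 110465–111261 had 510 and 148 RPM with HPRT1 and 394 and 513 RPM with HPRT1R. The forward region at 111379–111599, which diverges from the reverse one, had 380 and 274 RPM with HPRT1 and 200 and 386 RPM with HPRT1R. The forward region at 106666–107131 had 324 and 166 RPM and 288 and 333 RPM. These are the 3 tallest vector regions, and for each of them the libraries of the 2 loci overlapped.

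The remaining 4 were lower. The forward region at 101134–101435, next to the locus, had 265 and 233 RPM with HPRT1 and 254 and 182 RPM with HPRT1R. The forward region at 112199–112594 had 72.8 and 77.3 RPM and 85.2 and 176 RPM, and was the only one whose groups did not overlap. The reverse regions at 103629–103988 and 105956–106649 lay between 60.5 and 128 RPM in all 4 libraries. Which vector feature each region belongs to was not looked up here.

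Vector and native regions were fitted together with limma, since they have the same sequence in both groups. Of 1602 regions called in all 4 libraries, 1595 were native and 7 were on the vector, and 1474 lay at a coding start. None passed an adjusted p of 0.05, or 0% of those tested, with 93 regions below an unadjusted p of 0.05 and a lowest adjusted p of 0.778 (limma with Benjamini-Hochberg adjustment). The median log2 difference over all regions was 0.01, and that over the 7 vector regions 0.30, a ratio of 1.23 with a range of 0.861 to 1.64. Groups did not overlap, with HPRT1R higher, in 18.5% of all regions tested and, with HPRT1R lower, in 19.4%, beside which 1 of 7 vector regions is near the background. The locus regions differ in sequence between the groups and could not be fitted in this way.

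The height of the locus relative to the vector did not separate the loci. The median locus height over the median vector height was 1.72 and 1.83 in HPRT1 and 2.31 and 1.51 in HPRT1R, a ratio of 1.05 between the groups (log2 difference 0.07, SE 0.31; exact permutation p = 1, adjusted 1). HPRT1R replicate 2 had only 10 vector peaks and a vector median of 132 RPM, against 72.8 to 85.2 RPM in the other 3 libraries, and without HPRT1R replicate 1 the log2 difference was −0.23.

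No native gene of the shared selection passed the threshold. LEU2, which encodes 3-isopropylmalate dehydrogenase of leucine synthesis, is deleted from its native place and present on the vector. Its start region at III 91293–91902 had 178 and 158 RPM in HPRT1 and 179 and 107 RPM in HPRT1R. As the native copy is deleted, reads mapped there come from a copy elsewhere, and the vector carries LEU2. The region was still counted as native. Of the 11 other listed genes of leucine, isoleucine and valine synthesis, all had a start region in at least 1 library, 7 were tested and none passed the threshold, with log2 differences between −0.38 and 0.86 and a median of −0.08. ILV3, the dihydroxyacid dehydratase, had 973 and 1087 RPM in HPRT1 and 732 and 849 RPM in HPRT1R, and BAT1, the mitochondrial branched-chain aminotransferase, had 963 and 1337 and 1024 and 915 RPM. URA3 and MET17, deleted in the strain, had no start region, and HIS3, deleted in part, had 78.0 and 119 RPM in HPRT1 and 30.2 and 79.3 RPM in HPRT1R. Of 3 listed transcription factors, none had a start region in all 4 libraries. The calcineurin-responsive activator CRZ1 had none in any library, and the proteasome gene activator RPN4 had one of 17.2 RPM in HPRT1 replicate 2 and one of 16.7 RPM in HPRT1R replicate 2.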

How the data were processed

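CAGE-seq peak lists of 8 yeast libraries were read, 32 lists in all, and the 8 lists of the 4 episome libraries called on the separate synthetic sequence were used here. Per the labels and the study's methods, the authors aligned the first read of each pair with Bowtie2 2.2.9 to sacCer3 with the synthetic sequence added (bcl2fastq 2.20, SAMtools 1.9 and deepTools 3.5.0 are also named) and called peaks with MACS2 2.1.0, per library and strand, without control and with duplicates kept. Reads carried no molecular identifiers. The locus ends at base 100735 of that sequence.

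The lists hold the score deposited by the authors (10 times −log10 q), the fold enrichment deposited by the authors (a ratio of pileup to local background, each plus 1), and the −log10 p and −log10 q deposited by the authors. Pileup and background were solved from fold and p, assuming an extension of 200 bp, a background window of 10000 bp and a genome size of 12000000 bp. For 45253 peaks over all lists, those below the pileup where rounding of the deposited values matters, 100% of solved pileups were whole to 0.05. The lowest background of a list gives its aligned reads, from which RPM was computed. All 12151 native peaks of the episome libraries ended within the chromosomes of R64, the RefSeq equivalent of sacCer3.

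Same-strand peaks overlapping by 1 bp or more were merged into regions. Library-level values were compared by an exact two-sided permutation test (scipy 1.17.1) and native and vector regions called in all 4 libraries by limma 3.58.1 with trend on log2 RPM in R 4.3.3. Replicates are colonies of 1 strain, so limma p-values refer only to the spread between these libraries. The exact permutation p cannot fall below 0.333 and does not measure this spread. The pileup recovery and the limma step were tested on simulated data. Named items were the 8 tallest regions called in both libraries of a locus, every region within 150 bp of the study's 8 insertion positions, vector regions called in all 4 libraries, mirrored pairs up to 8 by the smaller height, native start regions (400 bp before to 100 bp after the coding start) past the threshold, and fixed gene lists. The members and lists were chosen with earlier results of these data known. Alternatives were leaving out each library, a replicate block, −log10 q of at least 20, fold of at least 4, peaks found in the other replicate, a common minimum height, peaks wider than 200 bp, lists called on chromosome XI, 5′ ends under 500 bp apart merged, fold in place of RPM, same-strand spacing, other limma settings and other mirror distances. Strand-wise values, a minimum of 100 RPM and the integrated libraries were added after the data had been seen. The sequence at 1 insertion position is not reported here.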

Additional observations from a re-analysis of the deposited data

Results flagged for a closer look

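The difference in median locus peak height between HPRT1R and HPRT1 had opposite directions in the episome and the integrated context in every library. As episomes, HPRT1R was higher by 0.57 on the log2 scale (126 and 141 against 197 and 199 RPM). Integrated in chromosome XI, the medians were 51.9 and 54.8 RPM in HPRT1 and 42.2 and 44.1 RPM in HPRT1R, a log2 difference of −0.30. The difference between contexts was not tested here, and the contexts also differ in medium.

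A vector peak of 19.1 RPM was called in HPRT1 integrated replicate 2, a strain labelled as carrying the locus in chromosome XI, in data outside the comparisons above. The other 3 integrated libraries had no vector peak.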

How the results depend on the processing

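Over 134 alternative values, of which 22 were added after the data had been seen, 18 turned the direction of a comparison, and the direction of the median locus peak height and of the share in the 5 tallest peaks was kept in all 15 each. Their sizes were not: with the authors' fold in place of RPM the height difference was 0.070 against 0.57 and that of the share −4.37 against −11.5 points, and the height difference was 0.32 with fold of at least 4, 0.35 for peaks wider than 200 bp, 0.15 from 100 RPM, 0.065 on the reverse and 1.34 on the forward strand. The share differed by −7.18 points on the reverse and −22.7 on the forward strand. No planned comparison of libraries could pass a threshold with 2 libraries a group. Values are HPRT1R minus HPRT1 (log2 for numbers, heights and spacing, percentage points for shares). The number of locus peaks turned on the forward strand alone (−0.088). The number of vector peaks turned for peaks found in the other replicate (0.25) and from 100 RPM (0.24), and was equal (0) with −log10 q of at least 20, fold of at least 4, peaks wider than 200 bp and on the reverse strand. The wide share turned on the reverse strand (−1.93) and from 100 RPM (−1.89), and was 1.02 with −log10 q of at least 20, 0.877 with fold of at least 4 and 4.06 with a common minimum height. The height of locus over vector turned with −log10 q of at least 20 (−0.049), peaks wider than 200 bp (−0.066), the authors' fold (−0.37), on the reverse strand (−0.11) and from 100 RPM (−0.0068). The spacing turned with fold of at least 4 (−0.018) and on the reverse strand (−0.44). The forward share turned with fold of at least 4 (2.51), for peaks wider than 200 bp (0.0098) and from 100 RPM (5.74). The causes were not tested.

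Without each library in turn, the log2 difference ranged from −0.023 (without HPRT1R episome replicate 1) to 0.14 for locus peaks, from −0.48 to 0.10 (without HPRT1R episome replicate 2) for vector peaks, from 0.49 to 0.66 for median height, from −0.23 (without HPRT1R episome replicate 1) to 0.38 for locus over vector and from 0.24 to 0.41 for spacing. Shares ranged from 3.47 to 9.96 points for wide peaks, from −7.02 to −3.31 for forward peaks and from −12.3 to −10.7 for the 5 tallest. Mirrored opposite-strand regions ranged from 14.1% to 20.8%, with 7.08% to 9.44% of positions covered. With fold of at least 4 the mirrored share was 10.9% and within 50 bp 11.7%. Within 500 bp it was 36.4%, where more positions are covered by construction. No limma setting called a region (0 in all 10).

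With the replicate number as a block, differences of group means are unchanged by construction, for example 0.57 for median height (exact sign permutation p = 0.5, the smallest that 2 pairs can give), and limma called 0 regions. Numbers shared between the loci are not known to mark a pairing: the replicate differences of both loci had a correlation of −0.037 across 1602 regions.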
